A study of Arabidopsis thaliana with 27 samples.

Results

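MIR8175 and MIR8176 are annotated miRNA genes of Arabidopsis thaliana that share sequence with other small RNA genes: MIR8175 with the tRNA-Asp genes, and MIR8176 with the snoRNA AT4G07075 (AtsnoR109), which lies over it. They were taken by their gene identifiers, AT2G05455 for MIR8175 and AT4G07080 for MIR8176, and make up 2 of 323 miRNA loci and 2 of 2071 small RNA loci counted. Small RNA was sequenced from hypocotyls, the stems, of etiolated (dark-grown) seedlings in 27 libraries, 3 for each of 9 groups. The genotypes were xpf-3, uvr8-6 and WT (Columbia-0), each kept in the dark or exposed to UV-B at a lower dose of 3000 or a higher dose of 30000 µmol per square metre. All groups germinated without light over 2.5 days on 0.5x MS medium with 100 µM of the gibberellin GA4, and exposed seedlings were returned to the dark. The dose was set by the length of exposure, hypocotyls were excised 6 hours after it per the extraction protocol, and the series title gives 2 days. XPF is a subunit of the endonuclease that cuts out UV-damaged DNA, and UVR8 is the plant UV-B photoreceptor. The mRNAs of XPF and UVR8 were not measured here, which leaves the genotypes as the labels state them.

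A plant miRNA is cut by DICER-LIKE1 from the paired stem of a longer hairpin transcript and guides an ARGONAUTE protein to target transcripts. Fragments of mature tRNAs and of snoRNAs, the guides of rRNA modification, are also present in plant small RNA libraries. In eukaryotes the last 3 bases of a mature tRNA, CCA, are added to the transcript by an enzyme and are not encoded in the nuclear tRNA gene. A read is assigned to a locus by its sequence alone, so a locus that shares its sequence with another RNA gene can hold reads of either.

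MIR8175 lies on the forward strand of chromosome 2 as a 189-base hairpin, chr2:3740797-3740985, and its 20-base mature sequence spans chr2:3740938-3740957 (TAIR10.1, sequences from RefSeq). The mature sequence is shown first with its last 3 bases in capitals, then with its seed (bases 2 to 8) in capitals. The hairpin follows with the whole mature sequence in capitals. The commonest tRNA-Asp gene follows with the 17 bases it shares with the mature sequence in capitals. The counts below turn on this shared stretch.
miR8175 with final CCA: gatccccggcaacggcgCCA
miR8175 with seed: gATCCCCGgcaacggcgcca
MIR8175 hairpin: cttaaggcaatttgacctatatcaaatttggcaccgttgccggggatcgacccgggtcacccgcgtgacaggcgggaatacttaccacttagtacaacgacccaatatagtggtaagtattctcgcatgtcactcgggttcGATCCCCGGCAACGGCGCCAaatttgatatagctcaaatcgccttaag
tRNA-Asp gene AT1G03515: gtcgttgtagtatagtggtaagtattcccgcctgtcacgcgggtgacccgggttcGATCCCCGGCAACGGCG

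The first 17 bases of miR8175 were the last 17 bases of 22 of the 26 tRNA-Asp genes annotated on the nuclear chromosomes. The shown gene, AT1G03515 at chr1:877648-877719 on the forward strand, has the 72-base sequence that 21 of the 26 share in full. None of the 22 genes was followed by CCA in the genome (0 of 22), whereas miR8175 itself ends in CCA. The 20 bases of miR8175 therefore equal the end of a tRNA-Asp to which CCA has been added. The full 20 bases matched the genome at 2 places, MIR8175 and chr3:16161749-16161768 within the protein-coding gene AT3G44580, on the strand opposite to that gene. The likeness to tRNA-Asp extends beyond the mature sequence. Bases 135 to 158 of the hairpin matched the tRNA-Asp gene in an unbroken run of 24 bases, and bases 50 to 89 matched its opposite strand in a run of 40 bases. The hairpin folded with a minimum free energy of -127.4 kcal/mol in RNAfold, with 19 of the 20 mature bases paired. Both arms of the fold thus hold tRNA-Asp sequence, in opposite orientations.

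MIR8176 lies on the forward strand of chromosome 4 as a 99-base hairpin, chr4:11795177-11795275, and its 21-base mature sequence spans chr4:11795199-11795219. AT4G07075, noted as AtsnoR109 in TAIR10.1, spans chr4:11795167-11795267 on the same strand. The mature sequence is shown with its seed in capitals, and the hairpin and the snoRNA with the mature sequence in capitals, to show that each holds the same bases.
miR8176 with seed: gGCCGGTGgtcgcgagaggga
MIR8176 hairpin: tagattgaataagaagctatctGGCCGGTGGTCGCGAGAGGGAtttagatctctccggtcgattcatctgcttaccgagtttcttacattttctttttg
AT4G07075 (AtsnoR109): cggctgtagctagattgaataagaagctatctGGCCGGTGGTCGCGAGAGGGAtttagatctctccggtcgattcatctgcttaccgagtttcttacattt

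Of the 99 bases of the MIR8176 hairpin 91 lie inside AT4G07075 (91.9%) and 8 lie beyond its end. The mature sequence occupies bases 23 to 43 of the hairpin and bases 33 to 53 of the snoRNA, and it occurred once in the genome. The hairpin folded with a minimum free energy of -31.1 kcal/mol, with 18 of the 21 mature bases paired. A long noncoding RNA gene, AT4G07070, covers the same bases on the same strand. Neither seed, ATCCCCG of miR8175 or GCCGGTG of miR8176, was shared with another of the 428 mature miRNAs annotated in TAIR10.1.

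Libraries held 681228 to 1970871 counts over all small RNA loci (median 1173114) and 15790 to 67899 counts over miRNA loci (median 42180). MIR8175 had 579 to 3523 counts per library and MIR8176 had 171 to 485, so both were counted in all 27 libraries. Levels are given as CPM, counts scaled to a fixed library total, with TMM normalisation on 2 scales, relative to the miRNA counts or to the counts of all small RNAs. These scales differ with UV-B: after the higher dose against dark, the median log2 change of 101 miRNAs was 0.16 on the miRNA scale and -0.55 on the scale of all small RNAs (mean of the genotypes). Tests are edgeR quasi-likelihood tests with Benjamini-Hochberg adjustment over 101 miRNAs or 1109 small RNA loci, at a threshold of 0.05. Log2 changes are followed by their standard error. The labels do not say whether replicates came from separate cultures, so p-values measure the spread between these libraries, which may be technical. In whole hypocotyls, fewer cells that make an RNA and less of that RNA per cell cannot be told apart.

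The counts of MIR8176 and of the snoRNA row snoR109 were nearly the same number in each library. They were equal in 15 of 27 libraries, snoR109 was higher in 12, and MIR8176 was higher in 0. The largest difference was 3 counts, and the totals over all libraries were 8028 for MIR8176 and 8048 for snoR109, so that MIR8176 reached 99.8% of snoR109. In WT after the higher dose, where the difference was largest, MIR8176 had 171, 425 and 186 counts and snoR109 had 174, 425 and 189 counts. In the dark, uvr8-6 libraries had 246, 236 and 232 counts in both rows. Among 107 miRNA loci with at least 100 counts in all, MIR8176 was the 1 whose counts matched those of another locus within 1% (summed difference 0.249% of its counts). The next nearest pair, MIR824A and MIR162B, differed by 15.3% of the counts of MIR824A, and MIR8175 differed from its nearest locus, MIR156C, by 25.4%.

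**Figure D1:**
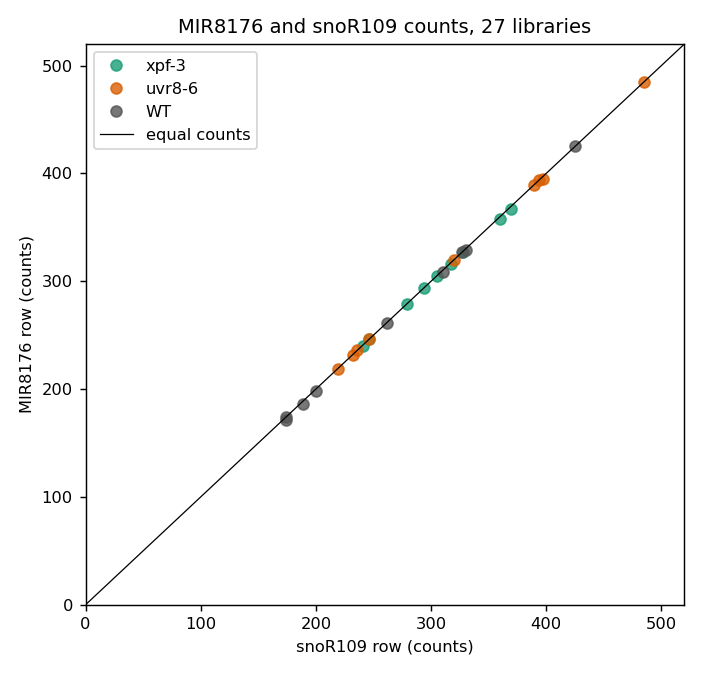
Counts of the MIR8176 row (vertical axis) against counts of the snoR109 row (horizontal axis), 1 point per library coloured by genotype, with the line of equal counts. All 27 points lie on the line or within 3 counts below it.

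The ratio of MIR8176 to snoR109 stayed close to 1 in all genotypes and treatments. It was 0.994 to 1 over 9 libraries of xpf-3, 0.995 to 1 over 9 of uvr8-6 and 0.983 to 1 over 9 of WT. The log2 ratio differed between uvr8-6 and WT by 0.0078, with an exact two-sided permutation test within treatments of p = 0.034 and an adjusted p of 0.136 over 8 ratio tests. The other 3 differences, xpf-3 against WT and each dose against dark, were 0.0051, -0.00068 and -0.0053, with adjusted p of 0.266, 0.775 and 0.266 in the same exact permutation tests. A change of MIR8176 on a given scale is therefore, in these counts, also the change of snoR109. The 2 genes overlap and their rows differ by at most 3 counts per library, so these tests say little about genotype or dose.

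MIR8175 was higher in uvr8-6 than in WT. On the miRNA scale it had 47980, 59881 and 86805 CPM in uvr8-6 in the dark, 49183, 49376 and 87019 CPM after the lower dose, and 78769.6, 47287 and 76562 CPM after the higher dose. In WT it had 18727, 41259.6 and 24669 CPM in the dark, 31383, 31569.5 and 30953 CPM after the lower dose, and 24243, 40409.96 and 36362 CPM after the higher dose. All 9 uvr8-6 libraries (47287 to 87019 CPM) lay above all 9 WT libraries (18727 to 41259.6 CPM). Over the 9 libraries of each genotype the mean was 64762 ± 17346 CPM in uvr8-6 and 31064 ± 7577 CPM in WT (SD, n = 9 each).

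In the mean of the treatments, MIR8175 was higher in uvr8-6 than in WT by 1.06 ± 0.19 log2 (2.09-fold, edgeR adjusted p = 0.000121). It was 1 of 20 miRNAs higher in this comparison, 19.8% of the 101 tested, and 24 were lower (23.8%). Without overlap between the 9 uvr8-6 and the 9 WT libraries it was 1 of 9 miRNAs (8.91%). The difference passed the edgeR test in each treatment on the miRNA scale. It was 1.20 ± 0.33 log2 in the dark (adjusted p = 0.0163), 0.98 ± 0.33 after the lower dose (0.0432) and 1.004 ± 0.33 after the higher dose (0.0321). Of the 101 miRNAs 7.92%, 7.92% and 12.9% were higher in these 3 comparisons. Leaving out 1 library at a time, the dark call stood in 3 of 6 fits (without WT replicate 2, uvr8-6 replicate 1 or uvr8-6 replicate 2; 0.77 to 1.59 log2 over the 6). The lower-dose call stood in 1 of 6 (without uvr8-6 replicate 1; 0.77 to 1.28 log2) and the higher-dose call in 2 of 6 (without WT replicate 2 or uvr8-6 replicate 2; 0.70 to 1.38 log2). The call in the mean of the treatments stood in all 18 such fits, at 0.97 to 1.26 log2. Each such fit repeated the low-count filter and the scaling on the libraries left, so a lost call cannot be laid to the library alone.

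On the scale of all small RNAs, MIR8175 averaged 2185 ± 588 CPM in uvr8-6 and 1202 ± 620 CPM in WT (SD, n = 9 each). The difference in the mean of the treatments was 0.89 ± 0.24 log2 (edgeR adjusted p = 0.00691), and MIR8175 was 1 of 159 loci higher there, 14.3% of the 1109 tested. The ranges overlapped on this scale, 1458 to 3189 CPM in uvr8-6 and 584 to 2665 CPM in WT. The highest WT value was that of dark replicate 2, at 2665 CPM, against 633 and 1217 CPM in the other dark WT libraries. No single treatment passed on this scale: the difference was 0.70 ± 0.41 log2 in the dark (edgeR adjusted p = 0.292), 0.86 ± 0.41 after the lower dose (0.222) and 1.11 ± 0.41 after the higher dose (0.093).

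**Figure D2:**
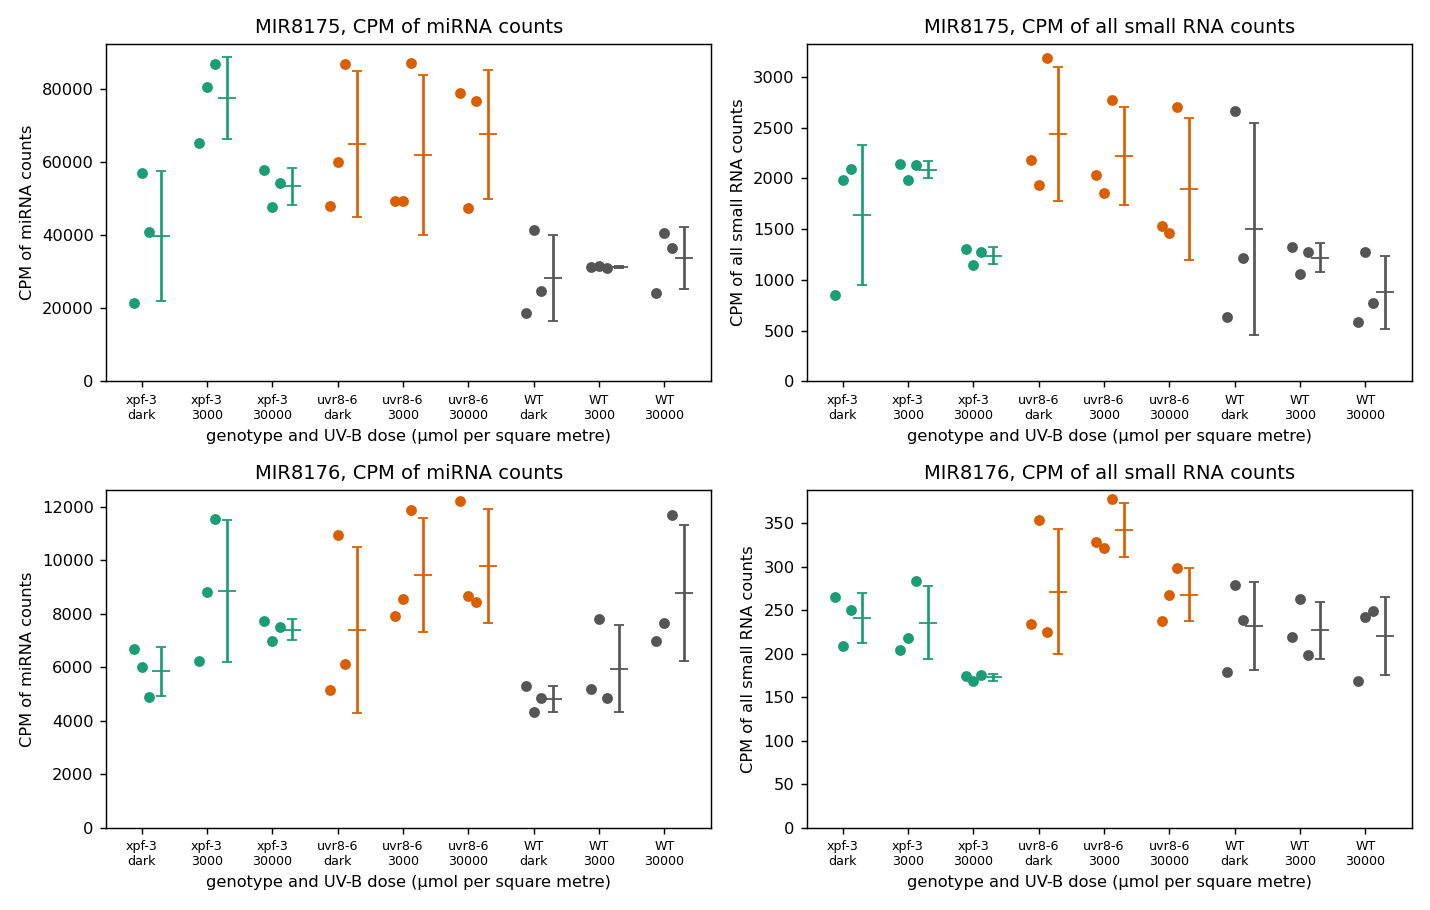
CPM of MIR8175 (top) and MIR8176 (bottom) relative to miRNA counts (left) and to counts of all small RNAs (right), by genotype and UV-B dose; points are libraries (3 per group), and the dash and bars beside them are the mean ± SD. The 9 uvr8-6 libraries lie above the 9 WT libraries for MIR8175 on the miRNA scale, and the ranges overlap in the other panels.

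In xpf-3, MIR8175 spread more widely between treatments. It had 21431, 56834 and 40762 CPM on the miRNA scale in the dark, 65026, 80319 and 86824 CPM after the lower dose, and 57802, 47684 and 54319.6 CPM after the higher dose. The dark xpf-3 libraries overlapped the dark WT libraries, while those after each dose lay above the WT libraries of the same dose, as for 7.92% of the 101 miRNAs after the lower dose and 11.9% after the higher dose. In the mean of the treatments MIR8175 was higher in xpf-3 than in WT by 0.82 ± 0.19 log2 (1.76-fold, edgeR adjusted p = 0.0157), as 1 of 2 miRNAs called in this comparison (1.98% of 101). This call ended in 14 of 18 fits that left out 1 library, at 0.61 to 0.90 log2 and adjusted p of 0.00562 to 0.259 over all 18. It stood in the 4 fits without WT dark replicate 2, xpf-3 dark replicate 1 and xpf-3 lower dose replicates 1 and 3. These fits, too, repeated the filter and the scaling.

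On the scale of all small RNAs the difference of xpf-3 from WT did not pass, at 0.46 ± 0.24 log2 (edgeR adjusted p = 0.701), where 0 of 1109 loci were called (0.0%) and 87 had an unadjusted p under 0.05 (7.84%). By treatment, the miRNA-scale differences of xpf-3 from WT were 0.49 ± 0.33 log2 in the dark (edgeR adjusted p = 0.61), 1.31 ± 0.33 after the lower dose (0.0776) and 0.66 ± 0.33 after the higher dose (0.489). None of these 3 passed, but the lower-dose difference passed under other settings: RLE size factors (1.25 log2, adjusted p = 0.0406), the 2 groups compared alone (1.32, 0.0020) and DESeq2 (1.25, 0.00504). With the replicate block given below, 4 alternatives passed and 8 did not. Leaving out 1 library at a time, it passed in 0 of 6 fits, at 1.05 to 1.41 log2 (edgeR adjusted p of 0.139 to 0.316). After the lower dose, xpf-3 also stood above WT without overlap on the scale of all small RNAs, as for 5.14% of the 1109 loci, at 2139, 1987 and 2133 CPM in xpf-3 against 1329, 1060.07 and 1271 CPM in WT. That lower-dose difference did not pass on this scale, at 0.77 ± 0.41 log2 (edgeR adjusted p = 0.765).

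No change of MIR8175 with UV-B passed the edgeR test. Over the genotypes, the log2 change against dark on the miRNA scale was 0.35 ± 0.19 after the lower dose (edgeR adjusted p = 0.325) and 0.25 ± 0.19 after the higher dose (0.334). On the scale of all small RNAs the same changes were -0.03 ± 0.24 (edgeR adjusted p = 1) and -0.51 ± 0.24 (0.145), so that the sign depended on the scale. The largest single change was that of xpf-3 after the lower dose, 0.96 ± 0.33 log2 on the miRNA scale (edgeR adjusted p = 0.0827) and 0.35 ± 0.41 on the scale of all small RNAs. DESeq2 called it on the miRNA scale, at 0.91 log2 (adjusted p = 0.0237). The 3 xpf-3 libraries of the lower dose lay above the 3 in the dark on the miRNA scale, as for 14.9% of the 101 miRNAs, and overlapped them on the scale of all small RNAs. The response of neither mutant differed from that of WT by a test: the difference of the lower-dose response was 0.81 ± 0.46 log2 for xpf-3 minus WT (edgeR adjusted p = 0.814) and -0.22 ± 0.46 for uvr8-6 minus WT (adjusted p = 1). The differences of the higher-dose response were 0.17 ± 0.47 log2 for xpf-3 minus WT and -0.20 ± 0.47 for uvr8-6 minus WT, with edgeR adjusted p of 0.905 and 0.964.

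Summed tRNA-Asp counts gave another order of the genotypes than MIR8175. The full 20 bases of miR8175, with CCA, match no tRNA-Asp gene in the genome. A tRNA-Asp fragment that carries CCA could thus be counted at MIR8175 and not in the tRNA-Asp rows. How such reads were assigned is not given, so these rows need not hold all fragments of tRNA-Asp. MIR8175 held 55462 counts in all, against 67970 counts in the 26 tRNA-Asp rows, whose sum per library was 827 to 4979 counts. Rows with an organelle gene identifier were left out of these 26. The summed tRNA-Asp level was 2105 ± 291 CPM of all small RNA counts in xpf-3, 1790 ± 316 CPM in uvr8-6 and 2067 ± 312 CPM in WT (SD, n = 9 each). The ranges of uvr8-6 and WT overlapped over all 9 libraries. After the lower dose the sum was lower in uvr8-6 without overlap, at 1983, 1781 and 1838 CPM against 2336, 2479.9 and 2112 CPM in WT. The share of the 1109 loci lower without overlap in that comparison was not counted, so this fall has no background beside it. In the opposite direction, 13.9% were higher without overlap. Within treatments the sum differed by -0.21 log2 between uvr8-6 and WT, where MIR8175 was higher in uvr8-6. An exact two-sided permutation test within treatments gave p = 0.0933 (adjusted p = 0.373 over 4 tests). The other 3 differences of the sum were 0.03 log2 for xpf-3 against WT, -0.02 after the lower dose and -0.11 after the higher dose, with adjusted p of 0.869, 0.869 and 0.718 in the same exact tests.

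The number of MIR8175 counts per tRNA-Asp count was higher in uvr8-6 than in WT. It was 1.05, 1.56 and 1.43 in uvr8-6 in the dark, 1.03, 1.04 and 1.51 after the lower dose, and 0.834, 1.06 and 1.55 after the higher dose. In WT it was 0.284, 1.19 and 0.80 in the dark, 0.569, 0.427 and 0.602 after the lower dose, and 0.281, 0.774 and 0.395 after the higher dose. The genotypes overlapped in the dark, through WT dark replicate 2 at 1.19, and did not overlap after either dose. No share of loci can be set beside this, as ratios were formed only for the members. After the lower dose the tRNA-Asp sum was itself lower in uvr8-6, as given above. The ratio does not set MIR8175 against all tRNA-Asp fragments, since those that carry CCA could be counted at MIR8175 itself. Whether MIR8175 varied apart from tRNA-Asp was not tested. The mean log2 ratio was 0.26 in uvr8-6 and -0.91 in WT, a difference of 1.17 log2 or 2.26-fold. An exact two-sided permutation test within treatments gave p = 0.00075 (adjusted p = 0.006 over 8 tests), where the smallest p of the 8000 arrangements is 0.00025. Leaving out each library in turn kept the difference at 1.06 to 1.32 log2, with adjusted p of 0.002 to 0.018 in the exact tests.

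In xpf-3 the ratio of MIR8175 to tRNA-Asp was 0.346, 0.895 and 0.885 in the dark, 1.09, 0.987 and 1.38 after the lower dose, and 0.537, 0.567 and 0.655 after the higher dose. Its difference from WT was 0.51 log2 and did not pass (exact permutation p = 0.118, adjusted p = 0.266). The ratio in xpf-3 after the lower dose did not overlap the dark xpf-3 libraries or the WT libraries of that dose. The summed tRNA-Asp level was in turn lower there without overlap, at 1962, 2014 and 1547 CPM in xpf-3 after the lower dose. It was 2336, 2479.9 and 2112 CPM in WT after that dose and 2458, 2217 and 2361 CPM in dark xpf-3. MIR8175 itself overlapped the dark xpf-3 libraries on the scale of all small RNAs. The share of loci lower without overlap was not counted, against WT or against dark xpf-3, so these falls have no background beside them. In the opposite direction, 5.14% of the 1109 loci were higher without overlap in xpf-3 than in WT after the lower dose. With 3 libraries against 3, an exact permutation test cannot go below p = 0.10. Over the genotypes the ratio changed by 0.11 log2 after the lower dose and by -0.32 log2 after the higher dose, with adjusted p of 0.775 and 0.382 in the exact permutation tests.

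**Figure D3:**
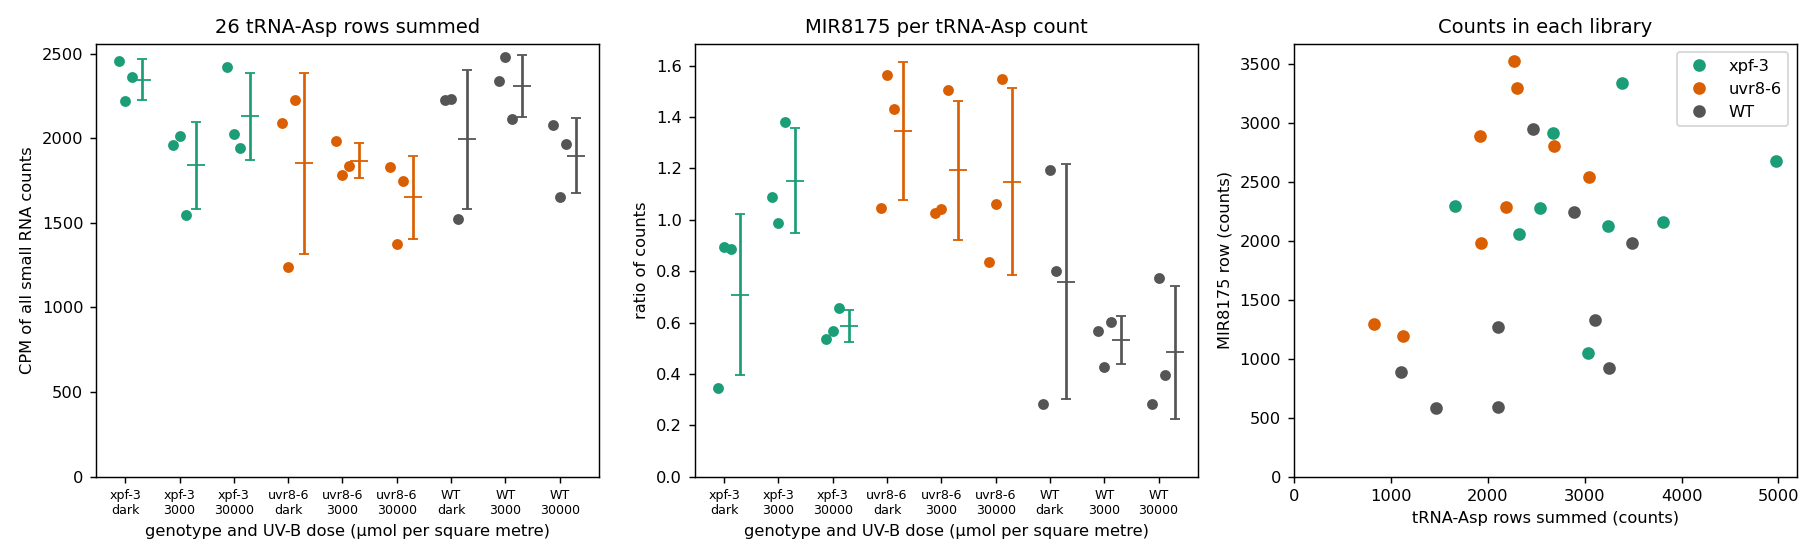
Summed CPM of the 26 tRNA-Asp rows (left) and MIR8175 counts per tRNA-Asp count (middle) by genotype and UV-B dose, with points for libraries (3 per group) and mean ± SD beside them; the right panel plots MIR8175 counts against summed tRNA-Asp counts in each library. The tRNA-Asp sums of uvr8-6 and WT overlap in the dark and after the higher dose and are lower in uvr8-6 after the lower dose, while the ratio lies higher in uvr8-6 than in WT except for 1 dark WT library at 1.19.

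The single tRNA-Asp rows were far less even between libraries than MIR8175. Between 10 and 20 of the 26 rows were above 0 in a library, and of the 23 rows tested 21 were at 0 in at least 1 library. The 3 rows with the highest mean were AT5G32017 (mean 360 CPM of all small RNA counts, 0 to 1029 counts), ENSRNA049492749 (mean 229.9 CPM, 0 to 709 counts) and ENSRNA049492754 (mean 208 CPM, 2 to 885 counts). Gene ends were checked for the 6 tRNA-Asp rows with an AT identifier, not for the 20 with an ENSRNA identifier. Of those 6, AT5G32017 is 1 of 4 whose gene does not end in the 17 bases of miR8175, with AT1G43820, AT2G07743 and AT2G33650. These 4 rows held 26.1% of the tRNA-Asp counts. Since 21 genes have 1 sequence, a read inside it fits all of them equally, and how such reads were assigned is not given in the sources used here.

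In the mean of the genotypes after the higher dose 3 of 23 tRNA-Asp rows were called, 1 higher and 2 lower, where 7.94% of the 1109 loci tested were higher and 8.93% lower. AT2G07743 fell by 0.93 log2 (edgeR adjusted p = 0.0372), with 2 to 20 counts after the higher dose and 3 to 27 counts in the dark. AT2G33650 was lower (edgeR adjusted p = 0.0432), with 0 to 401 counts after the higher dose, 4 of 9 libraries at 0, and 74 to 362 counts in the dark. ENSRNA049492627 was higher (edgeR adjusted p = 0.0332), with 0 to 160 counts after the higher dose, 3 of 9 libraries at 0, and 0 counts in all 9 dark libraries. In uvr8-6 against WT after the higher dose AT2G33650 was also called (edgeR adjusted p = 0.0419), with 401, 62 and 93 counts in uvr8-6 and 0 in each WT library; 6.85% of loci were higher in that comparison. No tRNA-Asp row was called in uvr8-6 against WT in the mean of the treatments (0 of 23 by edgeR). In this comparison, where MIR8175 was higher, 14.3% of the 1109 loci were higher and 16.1% lower. Of the 23 rows 21 were at 0 in at least 1 library, which limits what these calls can show. The median log2 change of the 23 rows was -0.18 in this comparison, beside -0.02 over all 1109 loci.

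MIR8176 was higher in uvr8-6 than in WT in the mean of the treatments on both scales. On the scale of all small RNAs it had 235, 354 and 225 CPM in uvr8-6 in the dark, 328, 321 and 378 CPM after the lower dose, and 237, 267 and 299 CPM after the higher dose. In WT it had 179, 279 and 238 CPM in the dark, 219, 262 and 199 CPM after the lower dose, and 168, 243 and 249 CPM after the higher dose. After the lower dose uvr8-6 lay above WT without overlap, as for 13.9% of the 1109 loci, and the genotypes overlapped in the other treatments. The difference was 0.37 ± 0.12 log2 on this scale (edgeR adjusted p = 0.0229) and 0.48 ± 0.16 log2 on the miRNA scale (0.0178). The row snoR109 was higher by 0.36 ± 0.12 log2 (edgeR adjusted p = 0.0247), and both rows were among the 159 loci higher in uvr8-6. Without WT higher dose replicate 1 the adjusted p of MIR8176 on the scale of all small RNAs was 0.0637, and the other 17 fits that left out 1 library passed. After the lower dose alone the difference on the miRNA scale was 0.67 ± 0.28 log2 (edgeR adjusted p = 0.0921), and it passed with RLE size factors (0.83, adjusted p = 0.0252), with the groups compared alone (0.89, 0.0237) and with DESeq2 (0.83, 0.0104). Leaving out 1 library at a time, it passed in 3 of 6 fits, at 0.60 to 0.95 log2 (edgeR adjusted p of 0.0154 to 0.141).

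Of the 318 snoRNA rows tested, snoR109 among them, 89 were higher in uvr8-6 than in WT in the mean of the treatments and 49 were lower by edgeR, where 14.3% of all loci were higher and 16.1% lower. Of 417 tRNA rows other than tRNA-Asp 31 were higher and 47 lower, and of the other 99 miRNAs 10 were higher and 25 lower on the scale of all small RNAs. The median log2 change was 0.08 for these snoRNAs and -0.18 for these miRNAs.

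The response of MIR8176 to UV-B depended on the scale. On the miRNA scale it had 6681, 5993 and 4875 CPM in xpf-3 in the dark, 6224, 8831 and 11539 CPM after the lower dose, and 7736, 6979 and 7508 CPM after the higher dose. In uvr8-6 it had 5154, 10938 and 6112 CPM in the dark, 7929, 8534 and 11868 CPM after the lower dose, and 12226, 8673 and 8454 CPM after the higher dose. In WT it had 5284, 4325 and 4834 CPM in the dark, 5178, 7815 and 4841 CPM after the lower dose, and 6979, 7664 and 11681 CPM after the higher dose. After the higher dose the libraries of xpf-3 and of WT lay above their own dark libraries, as for 23.8% of the 101 miRNAs in xpf-3 and 12.9% in WT, and those of uvr8-6 overlapped.

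Over the genotypes MIR8176 was higher after the higher dose than in the dark by 0.54 ± 0.16 log2 on the miRNA scale (edgeR adjusted p = 0.0123), as 1 of 19 miRNAs higher (18.8% of 101). On the scale of all small RNAs its change was -0.19 ± 0.12 log2 (edgeR adjusted p = 0.293) and that of snoR109 was -0.19 ± 0.12 (0.302). The miRNA-scale call ended without WT higher dose replicate 3, at 0.32 log2 with an adjusted p of 0.107, and without uvr8-6 higher dose replicate 1, at 0.35 with 0.0582. In WT alone the change was 0.86 ± 0.28 log2 on the miRNA scale (edgeR adjusted p = 0.0404, 1 of 5 miRNAs higher, 4.95%) and -0.08 ± 0.21 on the scale of all small RNAs (0.92). In 5 of 6 fits that left out 1 of its libraries that WT call ended, at 0.49 to 0.62 log2. It stood without WT higher dose replicate 1. These fits also repeated the low-count filter and the scaling. With every library kept and no filter, the WT change was 0.60 log2 (edgeR adjusted p = 0.227). The median miRNA in WT moved by -0.93 log2 between the scales in this comparison.

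The other changes of MIR8176 did not pass. After the higher dose they were 0.34 ± 0.28 log2 in xpf-3 and 0.41 ± 0.28 in uvr8-6 on the miRNA scale (edgeR adjusted p = 0.403 and 0.385), and -0.48 ± 0.21 and -0.02 ± 0.21 on the scale of all small RNAs (0.188 and 1). The xpf-3 libraries of the higher dose, at 174, 168 and 176 CPM of all small RNA counts, lay below the dark xpf-3 libraries at 265, 209 and 249.8 CPM, as for 14.3% of the 1109 loci. After the lower dose the change over the genotypes was 0.42 ± 0.16 log2 on the miRNA scale (edgeR adjusted p = 0.112) and 0.09 ± 0.12 on the scale of all small RNAs (0.824). The difference of xpf-3 from WT in the mean of the treatments was 0.21 ± 0.16 log2 on the miRNA scale (edgeR adjusted p = 0.744) and -0.08 ± 0.12 on the scale of all small RNAs (1). The higher-dose response differed from that of WT by -0.52 ± 0.39 log2 in xpf-3 and by -0.45 ± 0.40 in uvr8-6 on the miRNA scale, and neither passed (edgeR adjusted p = 0.695 and 0.822).

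**Figure D4:**
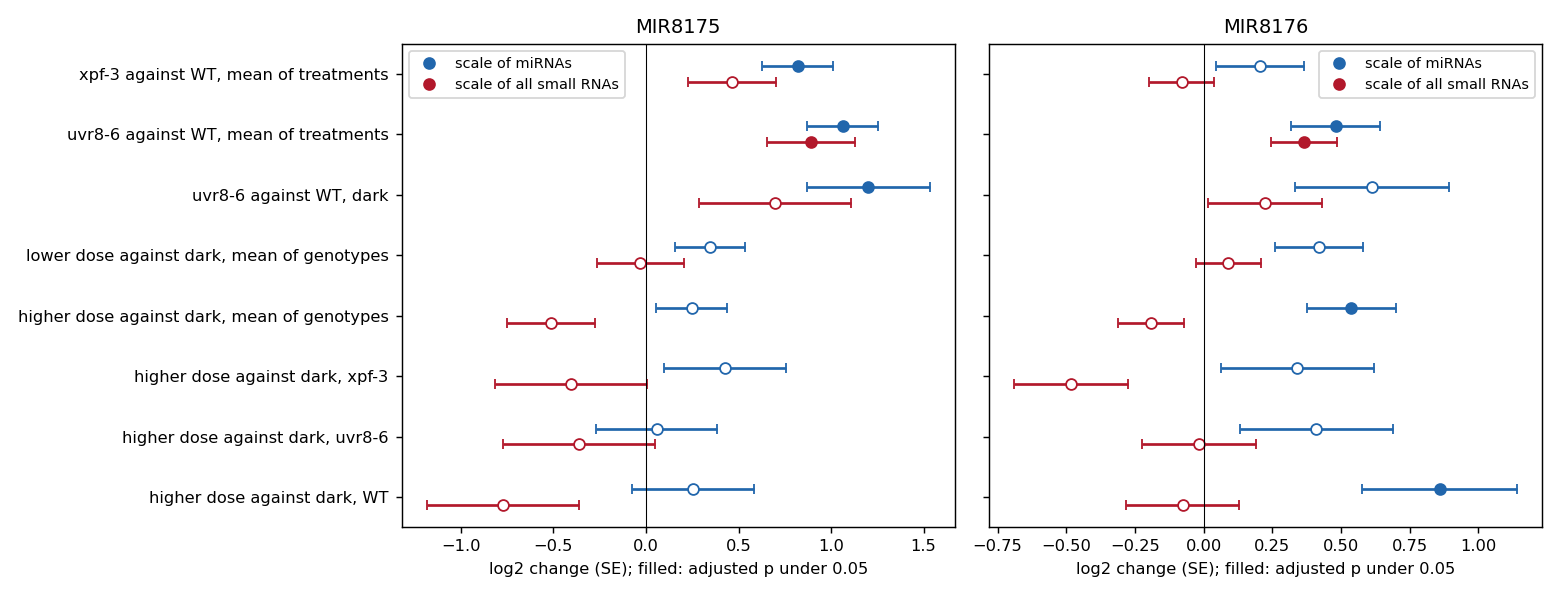
Log2 change (horizontal axis, bars are SE) of MIR8175 (left) and MIR8176 (right) in 8 comparisons, on the miRNA scale (blue) and on the scale of all small RNAs (red); filled points passed an edgeR adjusted p of 0.05. The difference of uvr8-6 from WT in the mean of the treatments passed on both scales for both loci, and the higher-dose change has opposite signs on the 2 scales.

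The loci whose level followed each member most closely over the 27 libraries were taken by Pearson's r of log2 CPM on the scale of all small RNAs, among 1108 other loci. For MIR8176 the first was snoR109 (r = 0.9998), and it was followed by the snoRNAs AT3G07715 (r = 0.808) and AT4G06705 (r = 0.806) and by the rRNA rows 5_8S_rRNA (ENSRNA049494515, r = 0.801) and AT3G41979 (r = 0.801). For MIR8175 the first was AT3G51135, a tRNA-Glu gene (r = 0.734), followed by a tRNA-Thr (ENSRNA049492655, r = 0.699), a tRNA-Val (ENSRNA049492712, r = 0.696), the same 5_8S_rRNA row (r = 0.696) and AT3G41979 (r = 0.695). No tRNA-Asp row was among the 5 for MIR8175. Its highest r with a tested tRNA-Asp row was 0.408 (ENSRNA049492677), the median over these rows was 0.011 and r with their sum was -0.19. Within the 9 libraries of a genotype, r of MIR8175 with the tRNA-Asp sum was -0.44 in xpf-3, 0.53 in uvr8-6 and -0.0075 in WT. The r between MIR8175 and MIR8176 was 0.517, and all these values share the libraries, their depth and the scaling.

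In the authors' deposited normalized values for miRNAs, which divide each count by a size factor of its library, MIR8175 averaged 2614 ± 972 in uvr8-6 and 1079.95 ± 428 in WT in the dark, and 2724 ± 528 in uvr8-6 and 1298 ± 352 in WT after the higher dose (SD, n = 3 each). MIR8176 averaged 289 ± 97.0 in uvr8-6 and 185 ± 21.2 in WT in the dark, and 396 ± 52.0 in uvr8-6 and 339 ± 109.5 in WT after the higher dose. In the authors' values for all small RNAs, MIR8176 averaged 331 ± 100 in uvr8-6 and 277 ± 67.3 in WT in the dark. After the higher dose it averaged 308 ± 37.3 in uvr8-6 and 265 ± 56.6 in WT. MIR8175 averaged 2949 ± 743 in uvr8-6 and 1804 ± 1262 in WT in the dark there. After the higher dose it averaged 2170 ± 755 in uvr8-6 and 1054 ± 416 in WT.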

How the data were processed

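Small RNA was counted per annotated locus in 27 libraries made with the Clontech SMARter smRNA kit. Tests used the deposited read counts, given as whole numbers for all small RNAs and for miRNAs. A second deposited set of sheets gives a normalized signal, and 100% of its values equalled the count over a size factor per library within 0.01. The submitters' processing notes name FastQC, a read quality check, and cutadapt, an adapter trimmer. Neither an aligner nor a genome build is given in the sources used here. In all, 218 deposited columns were not used. Counts were fitted in R 4.3.3 with edgeR 4.0.16 (TMM, filterByExpr with a minimum count of 10, quasi-likelihood, 27 libraries in 9 groups, 18 residual degrees of freedom), after tests on simulated counts. DESeq2 1.42.0 was an alternative. Log2 CPM used a prior count of 2 and ratios a pseudocount of 0.5. Comparisons of each mutant with WT after each dose, and of lower-dose responses, were added later.

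The miRNA sheet gives neither symbol MIR8175 nor MIR8176, so both were matched by identifier through TAIR10.1, which also gave the sequences, by exact string match; folds are from RNAfold 2.7.2. AT4G07075 was matched to the row snoR109 by its TAIR10.1 name, a choice made after the files were seen. The members, the tRNA-Asp rows and the other lists were chosen with earlier results of these data known. Named loci were the members, snoR109, the 3 tRNA-Asp rows with the highest mean, tRNA-Asp rows called, and the 5 loci most like each member. Replicate numbers were not taken to pair the libraries, as not every same-numbered pair had a correlation of deviations over 0.1. Still, 16 of 27 libraries correlated best with their own number, and fits with the number as a block are given below. Depth limits the rows with few counts; 27 replicate pairs had a chi-square of 32.2 to 178 per degree of freedom.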

Additional observations from a re-analysis of the deposited data

How the results depend on the processing

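The higher level of MIR8175 in uvr8-6 than in WT (mean of the treatments) passed on both scales under every alternative run, at 0.88 to 1.18 log2 without leaving out a library, and so did its ratio to tRNA-Asp, at 1.10 to 1.18. Scaling to all small RNAs in place of miRNAs moved most. With these library sizes the higher-dose change of MIR8176 over the genotypes was -0.19 log2, and the difference of MIR8175 between xpf-3 and WT was 0.46 (adjusted p = 0.287). Other values that changed sign with them were those of MIR8175 after the lower dose, to -0.030 over the genotypes and -0.30 in WT; after the higher dose to -0.51 over the genotypes, -0.40 in xpf-3, -0.36 in uvr8-6 and -0.77 in WT; MIR8176 after the lower dose to -0.036 in xpf-3 and -0.032 in WT, after the higher dose to -0.48 in xpf-3, -0.015 in uvr8-6 and -0.076 in WT, and in xpf-3 against WT to -0.080. Of the differences of response, uvr8-6 minus WT became 0.41 for MIR8175 and 0.061 for MIR8176 at the higher dose and 0.17 for MIR8175 at the lower, and xpf-3 minus WT became -0.0042 for MIR8176 at the lower dose. Without the low-count filter the higher-dose change of MIR8176 was 0.31 (adjusted p = 0.193) over the genotypes and -0.011 in xpf-3, that of MIR8175 was -0.0030 over the genotypes, -0.034 in uvr8-6 and -0.041 in WT, and its uvr8-6 minus WT response was 0.0077. With the groups compared alone, MIR8176 in uvr8-6 against WT on the scale of all small RNAs was 0.40 (adjusted p = 0.0512), and MIR8175 in uvr8-6 after the higher dose was -0.060. DESeq2 called MIR8176 after the lower dose over the genotypes, at 0.43 (adjusted p = 0.0337), and MIR8175 after the lower dose in xpf-3, at 0.91 (0.0237). After the lower dose, MIR8175 in xpf-3 against WT and MIR8176 in uvr8-6 against WT passed with RLE size factors (1.25 and 0.83), the groups compared alone (1.32 and 0.89) and DESeq2 (1.25 and 0.83). Of the calls in 1 genotype or treatment on the miRNA scale, MIR8176 after the higher dose in WT ended without the filter (0.60), with the groups compared alone (0.84) and with the replicate block (0.85); MIR8175 in uvr8-6 against WT ended without the filter in the dark (1.07) and after the lower dose (0.96), and with the groups compared alone in the dark (1.26). The cause was not tested.

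The edgeR fits that left out 1 library repeated the filter and the scaling on the libraries left. On the miRNA scale they gave 0.61 to 0.90 for MIR8175 in xpf-3 against WT. For MIR8176 they gave 0.32 to 0.53 after the higher dose and 0.27 to 0.48 after the lower. In uvr8-6 against WT, MIR8176 was at 0.31 to 0.45 on the scale of all small RNAs. Values that did not pass crossed 0 for MIR8175 after the lower dose (-0.40 to 0.28 in uvr8-6, -0.27 to 0.42 in WT, and -0.12 to 0.24 over the genotypes on the scale of all small RNAs) and after the higher dose (-0.24 to 0.33 in uvr8-6, -0.30 to 0.40 in WT). They also did so for MIR8176 in WT after the lower dose (-0.015 to 0.26), in uvr8-6 against WT after the higher dose (-0.10 to 0.39) and in xpf-3 against WT on the scale of all small RNAs (-0.12 to 0.00037). For the differences of response the ranges were -0.044 to 0.69 (MIR8175, xpf-3, higher dose), -0.58 to 0.36 (MIR8175, uvr8-6, higher), -0.75 to 0.00038 (MIR8176, uvr8-6, higher), -0.53 to 0.24 (MIR8175, uvr8-6, lower) and -0.048 to 0.44 (MIR8176, uvr8-6, lower). The log2 ratio after the lower dose ranged from -0.080 to 0.24 for MIR8175 to tRNA-Asp and from -0.0011 to 0.00076 for MIR8176 to snoR109.

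With the replicate number as a block (replicate block), 10 of 48 fitted values of the members were called, as without it, but not the same ones: MIR8175 in xpf-3 against WT after the lower dose was gained (1.28, adjusted p = 0.0471) and MIR8176 in WT after the higher dose was lost (0.85, 0.0583). The ratio of MIR8175 to tRNA-Asp in uvr8-6 against WT had an exact permutation adjusted p of 0.0312. The labels give replicates only a number in common. Same-numbered libraries had a median correlation of deviations of 0.03 (-0.15 to 0.21, 9 of 108 pairs over 0.1). Differently numbered ones had -0.0062 (-0.17 to 0.14, 3 of 216 over 0.1), and 16 of 27 libraries correlated best with their own number. Whether the numbers mark a batch was not tested. The block made the lower-dose change of MIR8175 0.026 on the scale of all small RNAs.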
